A study of Mus musculus with 3 samples.

Results

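Among 19074 sorted mouse NK cells, the 953 with the highest share of counts from 9 genes were examined against the other 18121. Most of these genes act in ribosome production, RNA modification or growth metabolism. The 9 genes were Srm, Mettl1, Apex1, Gpatch4, Pus7, Nop16, Timm8a1, Rrp15 and Mrto4, and the 953 cells, called top-5% cells here, were selected on the summed share of these genes over all libraries together. Cells with a count of the proliferation genes Mki67 or Top2a had been left out before ranking. The cells came from lung and blood of wild-type female mice on the C57BL/6 background, 9 weeks old, that were naive or had received 100000 PyMT mammary tumor cells intravenously 6 h or 14 days earlier. They were sorted as live NK cells carrying NK1.1 and NKp46, and lung and blood of a time point shared 1 droplet library in which hashtag antibodies marked the tissue. Each time point was 1 library, so time point and library cannot be told apart, no test across mice was possible, several mice were used per time point and cannot be told apart within a library, and intervals cover counting error only. Tag B0304 was taken to mark lung and B0306 blood, because the study's methods list tissues and tags in that order and pair them nowhere else.

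A cell that prepares to grow must first build ribosomes. The ribosomal RNA precursor is transcribed by RNA polymerase I in the nucleolus, cut, folded and modified by assembly factors, and joined with ribosomal proteins into a small and a large subunit that are exported separately. In lymphocytes, cytokines and activating receptors raise this program through the transcription factor MYC and the kinase mTORC1, together with amino acid uptake and nucleotide, polyamine and one-carbon metabolism, and MYC with its partner MAX binds DNA at the letters CACGTG (the E-box).

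Since the 9 genes were the basis of the ranking, their start-site windows were searched for those letters. The windows reach from 250 bases before to 50 bases after each annotated start in RefSeq on GRCm38.p6, and 7 of the 9 genes matched the table, Srm and Gpatch4 not. CACGTG was found in 4 of the 7, namely Mettl1, Apex1, Pus7 and Timm8a1. Each match is shown with 10 bases on either side, on the strand of the gene and with CACGTG in capitals, to let the flanks be compared.
Mettl1, chr10:127041952-127041977, plus strand: ctcggctctcCACGTGgactgcgtgg
Apex1, chr14:50924915-50924940, plus strand: gctccagaacCACGTGggggcggagc
Apex1, chr14:50924939-50924964, plus strand: gccctcgaatCACGTGaccacaccaa
Apex1, chr14:50924960-50924985, plus strand: accaatcgccCACGTGggaacaggca
Pus7, chr5:23783668-23783693, minus strand: cgcagcgccgCACGTGtgcgagcccg
Timm8a1, chrX:134541891-134541916, minus strand: ttcagtggacCACGTGggatgaagca
Timm8a1, chrX:134541631-134541656, minus strand: gtcacccagaCACGTGaaggtcggca
Apex1 thus held 3 matches close to its start, at -24, 1 and 22 from it, and the matches of Mettl1, Pus7 and the second of Timm8a1 lay 31, 29 and 25 bases after the start. The letters read the same on both strands and stood in 8.09% of the 27025 genes with a window, and in 12.7% of the 4526 with a window among the genes compared below. In the 200 bases before the start alone, 1 of the 7 ranking genes held them. A match is a string of letters and no measurement of binding.

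The top-5% cells were found in every library and in both tissues. They made up 3.33% of kept cells in naive lung (111 of 3332, exact binomial 95% CI 2.75 to 3.998) and 4.57% in naive blood (181 of 3961, 3.94 to 5.27). At 6 h the shares were 5.57% in lung (235 of 4219, 4.90 to 6.31) and 7.57% in blood (190 of 2509, 6.57 to 8.68). At 14 days they were 4.46% in lung (142 of 3187, 3.77 to 5.23) and 5.04% in blood (94 of 1866, 4.09 to 6.13). Blood lay above lung in each of the 3 libraries, although the intervals of the naive and of the 14-day library overlapped, and the 6 h library was highest in both tissues. These shares describe the ranking that chose the cells.

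**Figure D1:**
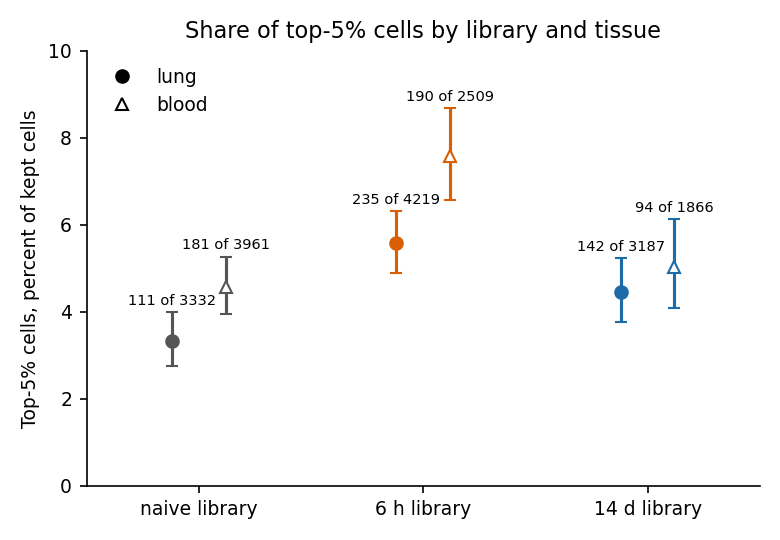
Percent of kept cells that are top-5% cells (y axis) in each library (x axis), lung as filled circles and blood as open triangles, with exact binomial 95% intervals and cell numbers. The 6 h blood cells stand highest at 7.57% and the naive lung cells lowest at 3.33%.

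At equal depth 6 h blood was again highest, naive lung lowest and blood above lung in each library. Median UMIs per cell, the molecules counted, were 1.14 to 1.27 times higher in top-5% cells than in the rest of the same library and tissue, and the rest of the naive lung had the fewest (5775). With each cell of at least 3000 UMIs thinned to 3000, at least 3 counts of the 9 genes were found in 1.94% of naive lung, 2.75% of naive blood, 3.804% of 6 h lung, 5.06% of 6 h blood cells, and in 3.08% and 3.82% of 14-day lung and blood cells. Cells under 3000 UMIs were left out of these shares, 84, 74, 39, 20, 35 and 6 in the same order. Barcodes with at most 100 UMIs, taken as free RNA, had 161, 208 and 171 CPM of the 9 genes together in the naive, 6 h and 14-day libraries, against 83.2, 118.7 and 104.2 in the rest and 999, 979 and 913 in top-5% cells. Free RNA thus held more of the 9 genes than the rest and, like the shares of top-5% cells, was highest at 6 h, and its part in the shares was not tested. The share of mitochondrial counts was lower in top-5% cells in all 6 groups, with medians of 2.42% to 3.13% against 2.85% to 3.30%. Of the barcodes kept, 16 were shared by the naive and 6 h libraries and 6 by either with the 14-day library, and 0 of these were top-5% cells.

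The cut fell on a slope and not in a gap. Levels are given in CPM, counts scaled to a common total. The lowest cells inside it had 584.881, 585.052 and 585.109 CPM of the 9 genes together, and the highest outside it had 584.795, 584.454 and 584.027. A top-5% cell held a median of 7 counts of the 9 genes, from 1 to 35, and a median of 5 of the 9 genes were detected in it. Of all cells, 56.7% held no count of any of the 9. At least 4 of the 9 genes were detected in 77.4% of top-5% cells and in 1.89% of the rest.

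The 9 genes served to choose the cells, and their levels are a description. Levels are the CPM of counts summed over cells, given in the order naive lung, naive blood, 6 h lung, 6 h blood, 14-day lung and 14-day blood. Srm, spermidine synthase, had 112, 152, 137, 145, 115 and 149.8 CPM in top-5% cells against 6.48, 7.15, 10.9, 12.1, 9.04 and 10.04 in the rest. Mettl1, which methylates tRNA, had 97.2, 109.5, 99.1, 115, 100 and 133 against 4.47, 7.03, 9.31, 11.3, 9.08 and 8.66. In both genes the rest of the naive library was lowest, while the top-5% cells showed no such order. Apex1, a DNA repair endonuclease, had a median over the 6 groups of 71.9 CPM in top-5% cells (59.0 to 80.5) and 5.70 in the rest (3.67 to 7.63). Nop16, a factor of the large subunit, had 72.5 (57.1 to 79.8) and 7.99 (4.77 to 9.69). The pseudouridine synthase Pus7 had 103 (78.3 to 142) and 7.59 (6.11 to 12.3), and among top-5% cells it was highest in naive lung. The medians of Gpatch4 were 95.1 and 8.52, those of Timm8a1, a mitochondrial import chaperone, were 121 and 17.3, those of Rrp15 were 114 and 14.4, and those of the large subunit factor Mrto4 were 156 and 22.7. The groups of top-5% cells and of the rest did not overlap for any of the 9.

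**Figure D2:**
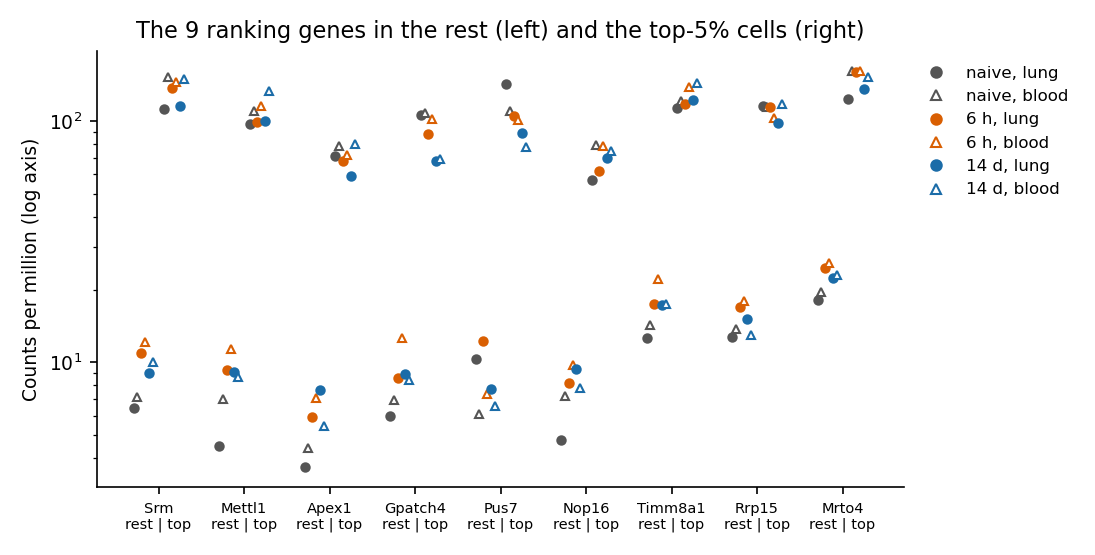
Level of each ranking gene in CPM (y axis, log scale) in the rest (left of each gene) and in the top-5% cells (right), with 1 point per library and tissue. All points of the top-5% cells lie above those of the rest, as the choice of the cells by these genes requires.

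To read the genes in counts that the ranking had not used, each cell's UMIs were split at random into 2 parts, cells were ranked on 1 part, and the 9 genes were read in the other. They then had 728 CPM in the top 5% and 118 in the rest, a ratio of 6.16, and the log2 ratio lay between 2.26 and 2.96 in the 6 groups. Srm differed by 9.72-fold and Mrto4 by 4.69-fold. Of the cells ranked in the top 5% on 1 part, 42.5% were also in the top 5% on the other. The excess was thus present in unused counts of the same cells, while many single cells changed place at the cut.

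The other genes were compared by the log2 ratio of CPM, top-5% cells over the rest, within each library and tissue. A gene counted as higher or lower if the median of its 6 ratios was at least 0.5 in size and all 6 had the same sign. Of 5592 genes with at least 30 CPM in either set of cells, 787 were higher (14.1%) and 889 lower (15.9%), and the median of all ratios was -0.10. A gene could pass that minimum through the set in which it was high: 433 of the 5592 passed only through the top-5% cells and 436 only through the rest, and these made up 292 of the higher and 230 of the lower genes. The minimum was therefore also set over all kept cells together, which left 5162 genes, 508 of them higher (9.84%) and 874 lower (16.9%), with a median ratio of -0.14. Of 839 genes in the lists below 604 passed the first minimum, and each main list's count is followed by that among its genes with 30 CPM over all kept cells, called abundant genes here. Since genes and ranking were read in the same cells, these counts describe the top-5% cells and carry no test, and the shares over all genes are the level against which each gene group can be read.

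Factors that assemble the ribosome were mostly higher. Of the small subunit factors, 28 of 32 were higher and 0 lower, with a median log2 ratio of 1.34, but 17 of the 28 had passed only through the top-5% cells, and of the 15 abundant genes 11 were higher. Of the large subunit factors 29 of 33 were higher and 0 lower, with a median of 1.25, and of 20 abundant genes 16 were. Fbl, the fibrillarin methylase that modifies ribosomal RNA, had 234, 271, 279, 272, 244 and 247 CPM in the 6 groups against 56.6, 65.6, 76.5, 75.7, 76.1 and 76.8, a median log2 ratio of 1.86. Its partner Nop56 had a median of 207 CPM (173 to 221) against 60.1 (53.4 to 65.5). Both genes kept a narrow range among the top-5% cells whatever the tissue or time point. Grwd1, a large subunit assembly factor, and Pno1, a small subunit assembly factor, had median log2 ratios of 2.67 and 2.15, both at levels that passed only through the top-5% cells.

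Among nucleolar proteins 14 of 19 were higher and 0 lower, as were 12 of 15 abundant genes, and their summed level was 4751 to 5078 CPM against 1730 to 1994. Npm1, nucleophosmin, had 1291, 1174, 1340, 1217, 1283 and 1138 CPM against 385, 383, 449, 437.5, 540.2 and 419.7. Ncl, nucleolin, had 1199, 1164, 1222, 1135, 1139 and 1089 against 404, 347, 422.5, 372, 404 and 330.2. Neither gene overlapped between the sets of cells. Of the genes of RNA polymerase I, 9 of 15 were higher and 1 lower, with a median of 0.69, and of 10 abundant genes 4 were higher and 1 lower, with a median of 0.39. Of the enzymes that modify tRNA and ribosomal RNA, 14 of 17 were higher and 0 lower, but 10 of the 14 had passed only through the top-5% cells, 12 of the 29 genes listed had passed through neither set, and 6 were abundant, of which 5 were higher.

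The ribosomal proteins themselves differed less. Of 81 cytosolic ribosomal protein genes, 9 were higher (11.1%, against 14.1% of all genes tested and 9.84% of abundant genes, and all 81 were abundant) and 0 lower, with a median log2 ratio of 0.27. Of 62 mitochondrial ribosomal protein genes, 27 were higher and 0 lower, with a median of 0.43, and of 48 abundant genes 17 were. Rps24, the most abundant of the cytosolic genes, had 4517 CPM in all top-5% cells together and 4185 in the rest.

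Genes that supply building blocks formed the next group. For serine and one-carbon metabolism 9 of 10 genes were higher and 0 lower, with a median of 1.72, but 6 of the 9 had passed only through the top-5% cells, and of 5 abundant genes 4 were higher, with a median of 1.23. Phgdh, the first enzyme of serine synthesis, had 117, 129, 116, 104, 119 and 134 CPM against 24.7, 28.0, 29.1, 30.9, 25.4 and 25.6. For nucleotide synthesis 15 of 18 were higher and 0 lower (median 0.95), and of 10 abundant genes 8 were. The CTP synthase Ctps had 51.9 CPM (41.8 to 54.7) against 8.70 (7.06 to 11.5), and like Slc7a5 and Myc below passed only through the top-5% cells. Cad, which starts pyrimidine synthesis, had 28.1 CPM against 11.3 as medians of the 6 groups and lay below the minimum level for a call. For polyamine synthesis, the pathway of Srm, 5 of 9 were higher and 0 lower (median 0.68), and of 8 abundant genes 4 were. Odc1, its rate-limiting enzyme, had 168, 144, 159, 149, 146 and 147 CPM in top-5% cells and 64.4, 30.8, 74.1, 37.5, 59.1 and 32.6 in the rest. In the rest Odc1 was higher in lung than in blood in every library, whereas the top-5% cells of lung and blood lay close together.

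Of 8 amino acid transporters, 4 were higher and 1 lower, and of 6 abundant genes 2 were higher and 1 lower. Slc7a5, the light chain of the large neutral amino acid transporter, had 72.9, 58.8, 70.0, 59.35, 53.0 and 71.5 CPM against 14.1, 7.51, 16.9, 7.80, 12.9 and 6.62, a median log2 ratio of 2.65. Its heavy chain Slc3a2 had a median ratio of 0.41 and was not called. Of the aminoacyl-tRNA synthetases, which load tRNAs, 18 of 21 were higher, and of the translation factors 23 of 39, with 0 lower in either, and of their abundant genes 13 of 16 and 21 of 37 were higher. For glycolysis 5 of 14 were higher and 1 lower.

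Protein folding and mitochondrial import followed the same direction. Of the chaperonin and HSP90 genes 18 of 20 were higher and 0 lower, of the mitochondrial chaperones 7 of 8 and 0, and of the mitochondrial import genes 12 of 21 and 0. Of their abundant genes 18 of 20, 6 of 6 and 9 of 17 were higher. Hspe1 and Hspd1, which form the mitochondrial chaperonin, had median levels of 555 and 353 CPM against 174 and 118. Of 15 genes of the mitochondrial genome, 0 were higher and 0 lower. Of 3 heat shock genes tested, 1, Hsph1, was higher.

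**Figure D3:**
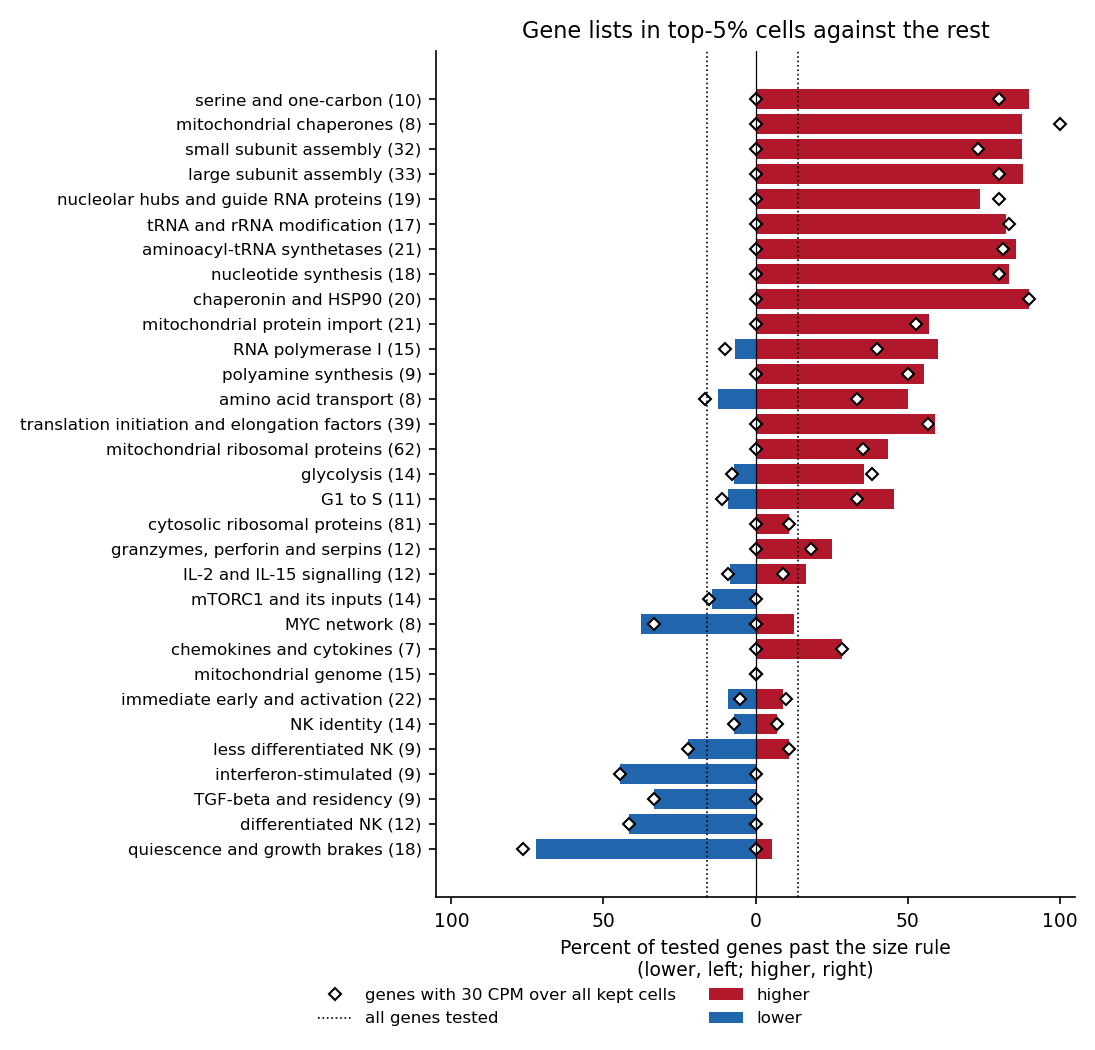
Percent of the tested genes of each list (number in brackets) that were higher (right) or lower (left) in top-5% cells, ordered by the list's median log2 ratio, with the shares over all 5592 genes as dotted lines (14.1% and 15.9%) and diamonds for the percent among the list's genes with 30 CPM over all kept cells. Lists of ribosome assembly, one-carbon metabolism and chaperones reach far beyond the dotted line on the right, and growth brakes reach farthest to the left.

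The regulators of growth differed unevenly. Of 8 genes of the MYC network 1, Myc, was higher and 3 lower, with a median log2 ratio of -0.06, and of 6 abundant genes 0 were higher and 2 lower. The summed level of the list, which also holds antagonists of MYC, was lower in top-5% cells than in the rest in all 6 groups. The 3 lower genes were all such antagonists, Mxi1 (median log2 ratio -1.82, passing only through the rest), Mxd4 and Mxd1. Myc had 29.1, 66.0, 39.5, 55.9, 60.4 and 62.6 CPM in top-5% cells against 16.02, 21.8, 20.7, 23.3, 39.2 and 21.4 in the rest, a median log2 ratio of 1.10, and the groups overlapped through naive lung. Its partner Max had a median ratio of 0.07 and was not called. Mxd4, a repressor that competes with MYC for MAX, had 96.0, 68.9, 64.8, 51.8, 32.8 and 57.0 CPM against 212, 196, 162, 140, 140 and 167. Mxd1, of the same family, had a median log2 ratio of -0.83 and was also lower. Of 14 genes of mTORC1 and its inputs, 0 were higher and 2 lower, and Mtor itself had a median ratio of 0.09. Of 13 abundant genes 2 were lower (15.4%, against 16.9% of all abundant genes).

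Of 18 genes of quiescence and growth braking, 13 were lower and 1 higher, with a median of -0.71, and of 17 abundant genes 13 were lower and 0 higher. Cdkn1b, the cell cycle inhibitor p27, had 70.45, 34.8, 63.9, 38.4, 44.0 and 39.1 CPM against 142, 113, 116, 89.999, 107 and 84.1. Klf2, a transcription factor of resting lymphocytes, had a median of 561 CPM against 842, and Txnip, which restrains glucose uptake, 169 against 317. The exception was Cdkn1a, the inhibitor p21, at 33.4 CPM (29.9 to 51.7) against 13.1 (6.99 to 27.9), in few counts and passing only through the top-5% cells. Of 11 genes from G1 to S phase 5 were higher, Ccnd2, Cdk4, Cdk6, Dut and Mcm3, of which Dut and Mcm3 passed only through the top-5% cells, and Ccnd3 was lower with a median log2 ratio of -0.94. Mcm6 was not called, at 0.31. No gene of G2 and mitosis reached the minimum level, in cells that were chosen to lack Mki67 and Top2a.

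**Figure D4:**
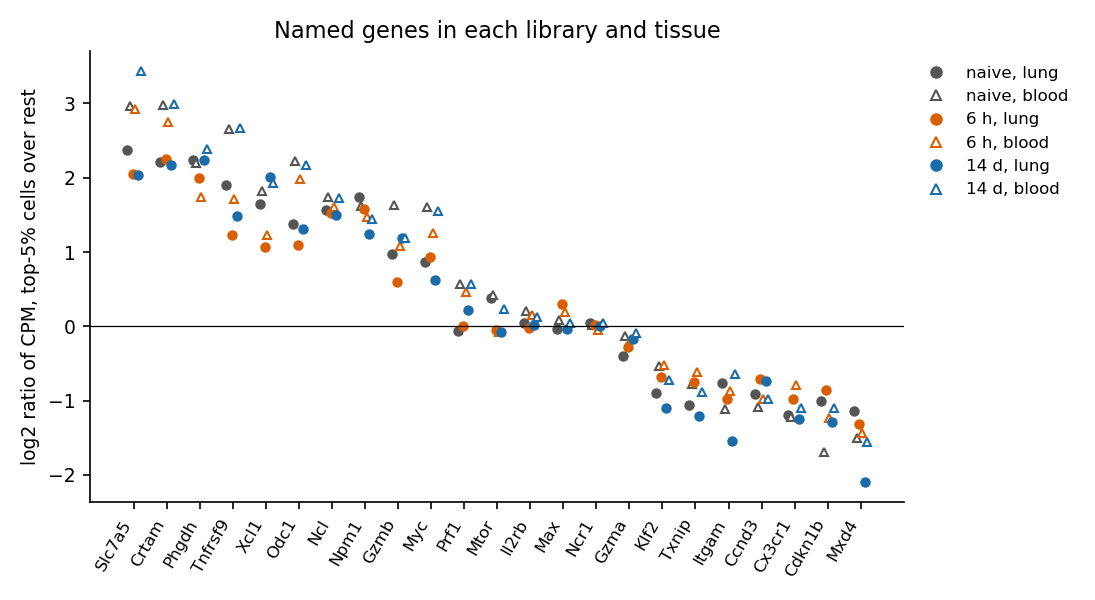
Log2 ratio of CPM, top-5% cells over the rest (y axis), for 23 named genes ordered by their median, with 1 point per library and tissue. Slc7a5, Crtam and Phgdh stand highest, Ncr1, Max and Il2rb lie near 0, and the MYC antagonist Mxd4 lies below 0 in all 6 groups.

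Of 14 NK identity genes 1, Xcl1, was higher and 1, Cd7, lower, against 14.1% and 15.9% of all genes tested. The list's median log2 ratio was -0.18, with 4 of 14 medians above 0. Its summed level was lower in top-5% cells in all 6 groups, by log2 ratios of -0.24 to -0.01. Ncr1, which encodes NKp46, had 935, 1575, 941, 1495, 681 and 1452 CPM in top-5% cells and 909, 1553, 931, 1543, 680 and 1401 in the rest, and its median ratio was 0.02. The receptor chain Il2rb, used by IL-2 and IL-15, had a median ratio of 0.09, and of 12 genes of that pathway 2 were higher, Pim3 and Stat5a, the latter passing only through the top-5% cells, and 1 lower, Jak1.

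Markers of other cells were present in both sets, and their part in the results was not tested. The summed level of 7 neutrophil genes was 0 to 1.12 CPM in top-5% cells and 0.478 to 31.7 in the rest, highest in naive blood, with S100a8, S100a9 and 3 others at 0 in top-5% cells. The 10 monocyte and macrophage genes summed to 36.3 to 78.4 CPM against 60.7 to 190.9, and lay below the rest in all 6 groups. Of 2 tested, 1 was lower, Fcgr3 (median log2 ratio -1.45), which passed only through the rest. In top-5% cells Adgre1 and Chil3 were at 0 and Ctss was the most abundant with 34.9 CPM. The 12 T cell genes summed to 501 to 605 CPM against 544 to 665. Of these genes 0 of 3 tested were higher or lower, Trbc1 was the most abundant (266 CPM against 292) and Cd4 and Cd5 were at 0. The B cell genes summed to 23.1 to 56.7 CPM against 36.4 to 53.2 and 0 of 1 tested were called, with Ighm the most abundant (37.5 CPM against 43.9) and Pax5 at 0. The 8 platelet and red cell genes summed to 3.35 to 7.25 CPM against 7.23 to 115.4, highest in the rest of 14-day lung, with Pf4 and Ppbp at 0. The 10 epithelial, tumor and endothelial genes summed to 58.7 to 111.7 CPM against 49.2 to 88.3. Of these Pecam1, which lymphocytes also express, was the most abundant (70.9 CPM against 63.1), and Krt8, Krt19, Sftpc, Cldn5, Cdh5 and Kdr were at 0.

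Among effector genes a few were higher and others were not called. Xcl1, a chemokine for dendritic cells, had 755, 1354, 1006, 1538, 2865 and 1212 CPM against 240, 384, 478, 656, 710.1 and 318. Gzmb, granzyme B, had 2066, 2473, 1837, 1993, 2707 and 2916 against 1053, 796, 1218, 942, 1186 and 1275. For both genes each group of top-5% cells lay above every group of the rest. Gzma and Prf1, granzyme A and perforin, were not called, with median ratios of -0.17 and 0.34, and neither were Ifng (-0.08) and Ccl3 (0.23). Of 12 genes of granzymes, perforin and serpins 3 were higher and 0 lower, and of 11 abundant genes 2 were. The third, Gzmc, passed only through the top-5% cells, in 3, 5, 32, 16, 513 and 9 counts, of which 18 of 32, 219 of 513 and 6 of 9 came from 1 cell. Tnfrsf9, the costimulatory receptor 4-1BB, had 802, 652, 706, 528, 450.0 and 620.5 CPM against 214, 103, 301, 161, 161 and 97.3. Crtam, an adhesion receptor of activated lymphocytes, had 101, 321, 123, 315, 155 and 218 against 21.8, 40.7, 25.9, 46.8, 34.3 and 27.3, and in top-5% cells it was higher in blood than in lung in all 3 libraries. Of 22 immediate early and activation genes 2 were higher (9.09%, against 14.1% of all genes tested), Tnfrsf9 and Gadd45b. Another 2 were lower (against 15.9% of all genes tested), Egr1 and Fos. Without the naive library neither was called, Fos because its median ratio was -0.44 in place of -0.61, and Egr1, which passed only through the rest, because it fell under the minimum level at a ratio of -0.95 with and without that library. Of 7 chemokines and cytokines 2 were higher, Xcl1 and Ccl4, and 0 lower. The list's median log2 ratio was -0.09, and its summed level was higher in top-5% cells in 1 of 6 groups. Ccl5, its most abundant gene, had 10063 CPM in all top-5% cells together and 13608 in the rest. The median ratio of Ccl4 was 0.68, and 0.48 without the 14-day library, where it was not called. Of 9 interferon-stimulated genes 4 were lower, and of 9 genes of TGF-beta signalling and residency 3 were, among them the receptor Tgfbr2 (-0.63), with 0 higher in either list. Tgfbr2 was not called after thinning before ranking (-0.44), without the 5% of cells with most UMIs (-0.43) or with the top 10% (-0.41).

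Genes of the differentiated NK state were lower in part. Of 12 such genes 5 were lower and 0 higher. Itgam, the integrin CD11b, had a median of 170 CPM (67.2 to 185) against 290.4 (195 to 370.0), and Cx3cr1, a chemokine receptor of circulating cells, had 43.9 (29.9 to 64.8) against 91.8 (70.5 to 138). Of 9 genes of less differentiated cells 1, Thy1, was higher and 2 lower, among them Cxcr4 (-0.81), and Cd27 had a median ratio of -0.04. The list's median was -0.25, Thy1 alone had a median above 0, and the summed level was higher in 2 of 6 groups. Thy1 had a ratio of 0.76. With the rest weighted to the UMI distribution of the top-5% cells it was at 0.44 and not called. With cells thinned to 3000 UMIs, Klrg1 and Cx3cr1 were both counted in 3.72% of top-5% cells (2.60 to 5.14) and 9.85% of the rest (9.41 to 10.3), and were lower in top-5% cells in all 6 groups. Cd27 without Itgam was counted in 10.3% (8.44 to 12.4) and 7.58% (7.197 to 7.98), but 6 h blood with 7.94% against 8.30% and 14-day blood with 5.32% against 6.795% went the other way. Of the top-5% cells, 9.99% (8.15 to 12.1) were also among the 5% highest in Ccl3 and Ccl4, against 4.73% of the rest (4.43 to 5.05). Naive lung, with 2.78% against 4.36%, went the other way. Itga1 and Pmepa1 were both counted in 0.425% (0.116 to 1.08) and 1.43% (1.26 to 1.61). Of the 255 such cells of the rest 226 were from 14-day lung, where the shares were 1.43% (2 cells) and 7.50%, and in 6 h lung they were 0.862% (2 cells) and 0.253%.

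The differences were graded along the ranking. Levels here are means of the 6 libraries and tissues, each weighted equally, since the bins drew different shares from each. Small subunit factors summed to 1037 CPM in the cells with no count of the 9 genes, 1189 in cells with counts below the top 25%, 1448 from 75% to 90%, 1826 from 90% to 95% and 2894 in the top 5%, and were higher at every step in all 6 groups. Serine and one-carbon genes went from 376 to 1051 CPM, also at every step in all 6. The cytosolic ribosomal protein genes went from 150956 to 189190 CPM, at every step in 3 of 6 groups. Growth brakes went the other way, from 6156 to 3993, at every step in 5 of 6 groups, and differentiated NK genes from 4393 to 2949, at every step in 3 of 6. The genes of mTORC1 and its inputs lay between 1349 and 1248, and were lower in the top 5% than in the cells with no count in all 6 groups. Compared with all other cells of a group, their summed level had log2 ratios of -0.17 to -0.04. The median ratio of all genes tested was -0.10.

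**Figure D5:**
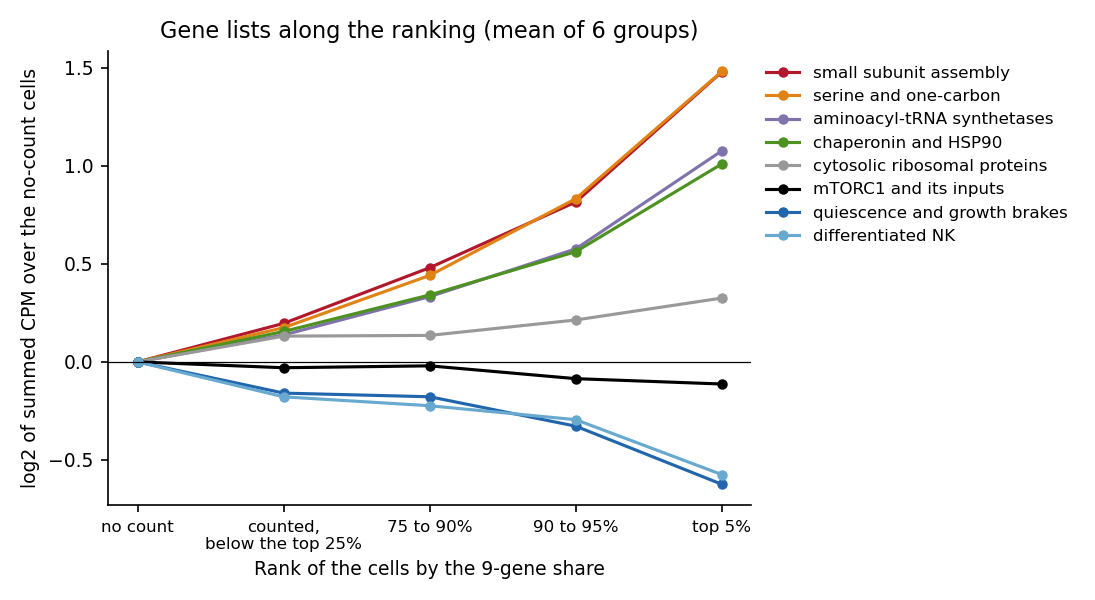
Log2 of the summed CPM of 8 gene lists, as the mean of the 6 libraries and tissues, relative to cells with no count of the 9 genes (y axis), in 5 bins of cells ordered by the 9-gene share (x axis). Ribosome assembly and one-carbon genes climb in every step to the top 5%, and growth brakes and differentiated NK genes go down.

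Between time points the top-5% cells were compared within a tissue, for genes with at least 100 CPM. In lung at 14 days against naive, 2063 genes were compared. Of these, 32 had a log2 ratio of at least 1 in top-5% cells and 156 of at most -1. In the rest of the cells, 32 and 41 of the 2063 genes were past these limits, and the overlap between the sets was not counted. That minimum could be passed at 1 time point alone: 15 of the 32 were below it in naive and 94 of the 156 in 14-day top-5% cells. Among 1915 genes with 100 CPM over all kept cells, 18 and 140 were past these limits in top-5% cells and 19 and 32 in the rest. The 111 naive and 142 14-day lung top-5% cells held 823298 and 1339964 UMIs, against 19912262 and 22792988 in the rest. Counting error and single cells therefore weigh more in the top-5% cells, and how far this raised their numbers was not tested. Cytosolic ribosomal protein genes took more of the counts at 14 days in both sets, 269817 CPM against 158815 in top-5% cells and 219910 against 126447 in the rest, and the median ratio of the genes compared was -0.30 and -0.22. Leaving ribosomal protein and mitochondrial genes out of the totals turned 32 and 156 into 91 and 109. In the other 3 comparisons at most 1 gene reached 1 and at most 9 reached -1 under the first minimum. Among the 1915 genes, 0 and 0 did in 6 h lung, 2 and 2 in 6 h blood, and 3 and 12 in 14-day blood.

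Gzmc, a granzyme, had 3.64 CPM in naive and 383 in 14-day lung top-5% cells, a log2 ratio of 6.72 (5.16 to 9.00), and 2.66 and 53.8 in the rest. Of its 513 counts in the 14-day cells, 219 came from 1 cell. Pmepa1, a feedback gene of TGF-beta signalling, went from 8.50 to 127 CPM and Ltb, lymphotoxin beta, from 17.0 to 149. Ahr, the aryl hydrocarbon receptor, went from 23.1 to 119, and in the rest Pmepa1, Ltb and Ahr had log2 ratios of 3.01, 2.60 and 2.13. Ptprk, a receptor phosphatase, went from 117 CPM, in 11 of 111 cells, to 2.24, which was 3 counts in 1 cell, and in the rest it went from 29.2 to 10.4 CPM. In blood at 6 h, Ccl3 was at 170.5 CPM against 403 in naive blood, a log2 ratio of -1.24 (-1.45 to -1.04), and in the rest the ratio was 0.02.

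Among the 659 higher genes with a start-site window, CACGTG stood in 132, or 20.03%, against 65 of 713 lower genes (9.12%) and 577 of all 4526 tested genes with a window (12.7%). Among abundant genes the shares were 17.3%, 8.99% and 12.1%. In the 200 bases before the start alone the shares were 13.1%, 6.17% and 9.41%. CCGGAAG or its reverse complement, letters bound by ETS factors, stood in 29.3% of higher, 16.8% of lower and 24.9% of tested genes, and CGCATGCG, bound by NRF1, in 5.61%, 2.95% and 5.32%. Among abundant genes the shares for CCGGAAG were 30.1%, 16.5% and 24.7%, and those for CGCATGCG were 4.74%, 2.996% and 5.13%, so that higher genes then lay below tested genes. Genes had 1.17 windows on average among the higher and 1.40 among the lower genes, and the number of windows alters the chance of a match.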

How the data were processed

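Cells were sorted as live NK cells and processed on the 10x Genomics platform. The authors deposited UMI counts per gene and hashtag for all barcodes (unit count, not normalized), made with Cell Ranger (7.0.1 per the labels, 7.1.0 per the file headers) on GRCm38 with GENCODE M23, and analysed them in Seurat 5.0. Here, barcodes with 800 to 5000 detected genes, at most 6% mitochondrial counts and 1 hashtag at 90% or more of the tag counts were kept, and cells with a Mki67 or Top2a count were left out (750, 698 and 591 cells in the naive, 6 h and 14-day libraries). The 19074 kept cells held between 14636277 UMIs in 14-day blood and 31437692 in 6 h lung. No doublet caller was run. Cells with both tags made up 4.08%, 2.08% and 2.32% of the libraries, from which 4.14%, 2.39% and 2.67% doublets within a tissue were estimated and stayed in.

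Counts were summed over cells per library and tissue and scaled to a common total (CPM). Intervals are exact binomial 95% intervals, for ratios conditional on the sum of both counts. Ties in a ranking were broken by UMIs and then at random. Calculations used Python 3.11.15, numpy, scipy and pandas, and were tested on simulated counts. The members and gene lists were chosen with earlier results of these data known. Genes were named as the 9 ranking genes, the leading and key genes of the lists, 15 genes at either end of the ratios, and 5 in each direction between time points. The lowest rank bin planned was replaced by cells with no count, since over 50% of cells had none. Alternatives changed the cut, depth, score, filters, totals and thresholds, or left out a library.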

Additional observations from a re-analysis of the deposited data

Results flagged for a closer look

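Among cells with a Mki67 or Top2a count, which had been left out, 7.45% of the 6 h library (52 of 698 cells, exact binomial 95% CI 5.61 to 9.65) lay above the cut, more than the 4.93% of the naive library (37 of 750, 3.50 to 6.74). The intervals overlap. The genes of IL-2 and IL-15 signalling had median log2 ratios of -0.051 (lung) and 0.14 (blood), with opposite signs in all 3 libraries, and the difference between the tissues was not tested.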

How the results depend on the processing

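The cut of 5% is arbitrary and the 9 genes are counted a few times per cell, so membership of single cells is uncertain and differences of low genes are limited by depth. No paired analysis was possible because the time points share only replicate number 1; top-5% cells and the rest were read side by side within each library and tissue. In all 12 settings that could move the shares, 6 h blood was highest and naive lung lowest. With the top 2.5% the shares in naive lung and blood, 6 h lung and blood, and 14-day lung and blood were 1.59%, 2.47%, 2.61%, 4.30%, 1.63% and 2.95%, and with the top 10% 7.35%, 8.63%, 11.1%, 13.9%, 9.73% and 10.2%. A cut without ties at 3000 UMIs, added after seeing the data because 938 cells tied at 2 counts, gave 1.94%, 2.75%, 3.804%, 5.06%, 3.08% and 3.82%.

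Genes higher and lower numbered 787 and 889. They numbered 1239 and 1761 with a ratio past 0.25, 288 and 121 past 1, 308 and 359 at 100 CPM or more, and 508 and 874 at 30 CPM over all kept cells (added after seeing the data). At 10 CPM they numbered 1040 and 1357. Higher genes outnumbered lower ones with the top 10%, at 568 and 435, and after thinning to 3000 UMIs before ranking, at 599 and 549. Of 116 ribosome biogenesis genes tested 94 were higher, 48 of 66 at 30 CPM over all kept cells and 32 of 40 at 100 CPM. Leaving out each library gave 744 to 815 higher and 850 to 1004 lower genes. Without ribosomal protein and mitochondrial genes in the totals, 55.0% of calls were higher in place of 47.0%, and 91 in place of 32 genes were higher in 14-day lung, where 18 were at 100 CPM over all kept cells (added after seeing the data). With ranking on a random part and values from the other, 659 and 688 were called. No gene called in 1 direction was called in the other under any setting, and no list median past 0.5 or named gene called changed sign. Over all settings, 93 of 648 list medians and 103 of 1152 ratios of named genes moved by more than the spread between the 6 groups, and 23 of 62 named genes called lost the call in at least 1 setting besides those of the size and level limits. Of 160 values of other main results, 42 also counted as moved. Named genes whose ratio fell under 0.5 in size when a library was left out were Ccl4 without the 14-day library (0.48) and Fos (-0.44) and Zeb2 (-0.49) without the naive library. Others fell only under the minimum level: Gzmc (0.72), Pink1 (-1.58) and Abca1 (-2.76) without the 14-day library, and Egr1 (-0.95), Mxi1 (-2.16), Trmt61a (2.68), Pink1 (-1.46) and Abca1 (-1.79) without the naive library. Ccl4 was also at 0.34 with the top 10%, 0.40 after thinning before ranking and 0.37 with the mean of scaled genes. Calls lost with the top 10% included Ccnd2 (0.498), Jak1 (-0.476) and Klf2 (-0.457), and Ccnd2 was at 0.472 after thinning before ranking.

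Without thinning, the overlap was 15.4% and 8.32% for Cd27 without Itgam, 10.9% and 19.2% for Klrg1 with Cx3cr1, and 1.68% and 3.34% for Itga1 with Pmepa1. CACGTG within 200 bases before the start was in 14.3% of the ranking genes, 13.1% of higher, 6.17% of lower and 9.41% of tested genes.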

Other observations

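Genes outside the fixed lists were also far from the rest. Spp1, osteopontin, had 64.4, 75.4, 29.1, 31.4, 104 and 115 CPM in top-5% cells of naive lung, naive blood, 6 h lung, 6 h blood, 14-day lung and 14-day blood, against 12.9, 15.97, 17.6, 20.2, 21.5 and 20.5 in the rest. Its counts lay in few cells: in 14-day blood 60 of 103 counts came from 1 cell, and its median log2 ratio of 2.25 was 1.497 without the naive and 1.48 without the 14-day library. Ifrd2 had a median log2 ratio of 2.92 (2.58 to 3.41), with 40.4 CPM in all top-5% cells together and 5.27 in the rest. Atad3a, a mitochondrial membrane ATPase, and Ppa1, a pyrophosphatase, had median ratios of 2.33 and 2.27, and the host gene of small nucleolar RNAs Snhg4 had 2.25. All 5 genes reached 30 CPM only in the top-5% cells.

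At the other end, Abca1, a cholesterol exporter, had 3.64, 3.63, 9.395, 4.655, 20.9 and 4.47 CPM in top-5% cells against 31.7, 36.4, 21.3, 24.45, 41.9 and 34.3 in the rest. These were 3, 5, 20, 8, 28 and 4 counts in top-5% cells, Abca1 reached 30 CPM only in the rest, and its median ratio of -2.67 was -1.79 without the naive library, where it fell under the minimum level, -1.51 with ranking and values from separate parts of the counts and -1.32 with the top 10%. Selenop, selenoprotein P, had a median ratio of -1.95, and the growth factor gene Angpt1 -1.93, or -1.22 with the top 10%. Map2k6, a kinase upstream of p38, and Pink1, a kinase of mitochondrial quality control, had -1.84 and -1.58, and Pink1, at -1.46 without the naive and -1.58 without the 14-day library, was then under the minimum level. With ranking and values from separate parts of the counts Map2k6 had -1.15 and Pink1 -1.07. Map2k6 was at -0.98 with the top 10% and -2.80 with the top 2.5%. Selenop, Map2k6 and Pink1 also reached 30 CPM only in the rest. Of the 787 higher genes 264 were in the fixed lists, and of the 889 lower genes 41 were, so that most genes called in either direction belonged to no list examined.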
